A study of Mus musculus with 6 samples.

Results

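The cytosolic ribosomal protein genes were examined by RNA-seq in AY-mICC, a line of mouse cells used to study intrahepatic cholangiocarcinoma, which is cancer of bile ducts inside the liver. The comparison was of control cells (shCon, 3 libraries) with cells carrying a knockdown of Copa (shCopa, 3 libraries). Both carry the prefix usual for a short hairpin RNA and were grown in the same serum-containing medium with no further treatment in the labels. The protein of Copa is the alpha subunit of COPI, a coat on vesicles that return proteins from the Golgi to the endoplasmic reticulum. The hairpin sequences, the number of hairpins or clones and the origin of the replicates (separate cultures or not) were not stated in the sources used here. The p-values therefore reflect only how far these libraries spread, which may be technical. Genes were taken by name (Rps or Rpl with a number, Rpsa, Rplp0, Rplp1 and Rplp2), and kinases and rows not annotated as protein coding were left out. Of 55414 rows, 89 matched the names, 83 of these were protein coding, and 80 had at least 10 counts in at least 3 libraries. These 80 genes, 32 of the small and 48 of the large subunit, are the ones described here. The protein-coding genes below that limit were Rpl10l, Rpl39l and Rpl3l, paralogs best known from testis and muscle, at 0, 0 and 0.17 counts per library on average. All 80 genes passed the filter on low counts of the test that follows.

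A ribosome joins a small subunit, which reads the mRNA, to a large subunit, which forms the peptide bond, and each subunit holds ribosomal RNA (rRNA) and a set of ribosomal proteins made in roughly equal amounts. Most of their mRNAs begin with a C followed by an unbroken run of pyrimidines, the 5′ terminal oligopyrimidine (TOP) motif, through which growth signals carried by mTOR control their translation. Their genes are expressed in all tissues, and in mouse they have left many processed pseudogenes, which are copies of the mRNA in the genome.

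To show this shared start, 30 bases around the annotated transcription start (15 on each side) are printed for 7 genes that the results below turn on. They are the genes past the test with all libraries, the 5 with the highest and the ones with a negative fold change among those past the test without shCon 1, taken only where RefSeq lists a single start. Sequences are from RefSeq (GRCm38.p6) and read 5′ to 3′ on the gene's strand, with runs of 5 or more C or T in capitals.
Rpl12 (chr2:32961697-32961726, plus strand): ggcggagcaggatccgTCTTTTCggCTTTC
Rpl7l1 (chr17:46782642-46782671, minus strand): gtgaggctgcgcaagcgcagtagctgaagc
Rps18 (chr17:33955651-33955680, minus strand): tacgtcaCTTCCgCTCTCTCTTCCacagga
Rpl38 (chr11:114668565-114668594, plus strand): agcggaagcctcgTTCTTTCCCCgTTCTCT
Rpl9 (chr5:65391417-65391446, minus strand): acgcagggccctgacggattacaagaacgt
Rpl7a (chr2:26910792-26910821, plus strand): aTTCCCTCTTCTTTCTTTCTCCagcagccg
Rpl5 (chr5:107900513-107900542, plus strand): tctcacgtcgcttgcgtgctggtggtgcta
Rpl12, Rps18, Rpl38 and Rpl7a have a run of 5 or more pyrimidines in these 30 bases, and Rpl7l1, Rpl9 and Rpl5 have none there. In a wider stretch around the start, the longest run was 10 bases in Rpl9, 9 in Rpl5 and 7 in Rpl7l1. RefSeq start windows were matched for 60 of the 80 genes, as 71 windows of 300 bases. A run of at least 8 pyrimidines within 50 bases of the start was present in 78.9% of them, against 35.7% of all 32851 windows. CCGGAAG, searched on both strands, was present in 26 windows (36.6%), against 8.86% of all windows. These matches describe letters only.

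Library totals were 19634876 to 24546142 counts. Levels are given as CPM, the usual counts scaled to a common library size, and so are shares of a library: neither RNA per cell nor, in bulk RNA, the number of cells of a kind was measured, and fewer cells of a kind and less RNA per cell cannot be told apart. Copa stood at 420, 517 and 527 CPM in shCon and 186, 182 and 187 CPM in shCopa. shCon replicate 1 (shCon 1) stood apart from its group, with r = 0.973 and 0.972 to shCon 2 and shCon 3 across genes on the log2 scale, against 0.990 between shCon 2 and 3 and 0.989 to 0.991 among the shCopa libraries. The results below are therefore given from the fit with all libraries and from the fit without it. Of 10 bile duct markers, Epcam was below 1 CPM in every library, while Krt8, Krt18 and Krt19 were at 522 CPM or more. Of 9 tested, 0 rose and 5 fell by edgeR, and 0 rose and 7 fell without shCon 1. The falling markers are 55.6% and 77.8% of those tested, against 18.4% and 27.0% of all tested genes. Of all tested genes, 18.2% and 28.3% rose. Summed over the list, these markers were at 11390 to 14470 CPM in shCon and 8498 to 8976 CPM in shCopa. Lymphocyte markers summed to at most 0.266 CPM, with Cd3e and Cd8a at 0 in every shCon library, and endothelial markers to 0.0822 to 0.232 CPM in shCon and 1.55 to 3.59 CPM in shCopa. Hepatocyte markers summed to 8.37 to 13.2 CPM in shCon and 22.8 to 24.2 CPM in shCopa, mostly Alb, with Cyp3a11 at 0 throughout. Macrophage markers summed to 157 to 195 CPM in shCon and 110.5 to 114 CPM in shCopa, mostly Csf1r, which fell from 141, 174 and 181 CPM to 87.4, 87.2 and 89.2 CPM. Of the other macrophage markers, Lyz2 rose from 1.15 to 1.81 CPM to between 7.996 and 8.45 CPM and Ptprc from at most 0.0429 CPM to 0.930 to 1.26 CPM, while Adgre1 was at 0 in every shCon library and at most 0.0443 CPM in shCopa. Fibroblast markers summed to 184.5 to 223.5 CPM in shCon and 170.1 to 184 CPM in shCopa, nearly all Dcn, with Col3a1 and Lum at 0 in every shCon library. In that list Acta2 rose from 0.129 to 0.325 CPM to 1.20 to 1.77 CPM and Pdgfrb fell from 2.01 to 2.40 CPM to 0.487 to 1.12 CPM. These calls on Csf1r, Lyz2, Ptprc, Acta2 and Pdgfrb held in both fits. The part of these markers in the results was not tested.

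As a family, ribosomal protein transcripts did not separate the groups: shCon 1 was above and shCon 2 and 3 were below the shCopa libraries. They took 2.59% of all counts in shCon 1, 1.66% in shCon 2 and 1.61% in shCon 3, and 1.85%, 1.98% and 1.99% in shCopa 1 to 3. The largest half-width of the 95% Wilson interval of these shares was 0.0066 percentage points, which covers counting error only. The group means were 1.96% ± 0.550 in shCon and 1.94% ± 0.0739 in shCopa (SD, n = 3 each). The same order held in each subunit. Small subunit genes took 0.967%, 0.608% and 0.585% in shCon and 0.704%, 0.748% and 0.748% in shCopa. Large subunit genes took 1.62%, 1.06% and 1.03% in shCon and 1.15%, 1.23% and 1.24% in shCopa.

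Gene by gene, shCon 1 was the highest of the 6 libraries in 74 of the 80 genes and the highest of the 3 shCon libraries in 78. The exceptions among shCon libraries were Rpl10 and Rps13, the latter named after its values were seen. Relative to the mean of shCon 2 and 3, shCon 1 was higher by a median of 0.76 on the log2 scale, with a range from -0.06 to 1.36. shCon 2 and 3 differed by a median of 5.12% of their mean. In 51 genes (63.7%) both of them were below all 3 shCopa libraries, against 35.8% of all genes tested without shCon 1. In 47 of the 51, shCon 1 was above all 3. The counts of 74, 78 and 47 were not made over all tested genes, so they have no background here. The median coefficient of variation of a ribosomal protein gene was 32.4% over the shCon libraries and 6.05% over the shCopa libraries, against 16.8% and 7.08% over all 14807 genes tested.

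**Figure D1:**
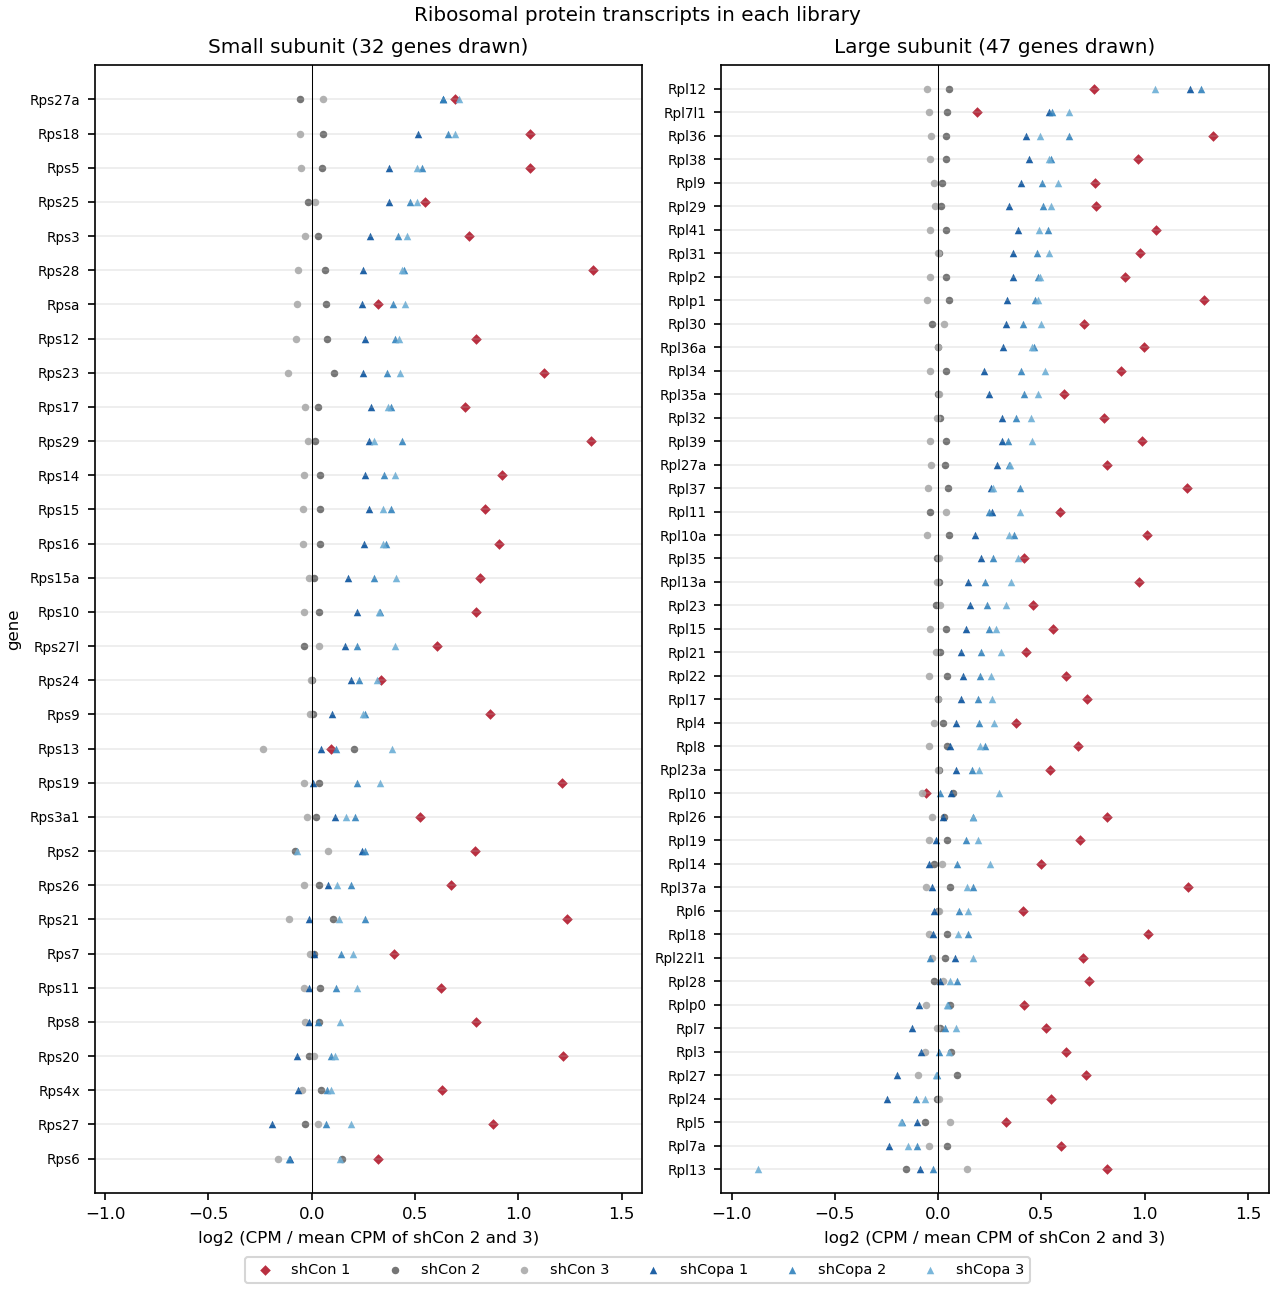
Level in each library of all but 1 of the 80 genes, as log2 of its CPM over the mean CPM of shCon 2 and 3, in the small subunit (left) and large subunit (right); each point is 1 library and genes are ordered by their fold change without shCon 1. shCon 1 (red diamonds) is the highest library in 74 of the 80 genes, and the shCopa libraries (triangles) lie between it and shCon 2 and 3 in 47.

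With all 6 libraries, only Rpl12 and Rpl7l1 rose and no ribosomal protein gene fell. A gene is said to rise or fall where the Benjamini-Hochberg adjusted p of edgeR's quasi-likelihood test, over 14807 genes, was under 0.05. By that rule 18.2% of all tested genes rose and 18.4% fell, so 2 of 80 rising and 0 of 80 falling are below the background. At an unadjusted p under 0.05, edgeR and limma-voom also gave 0 lower genes and DESeq2 gave 4, of which 0 passed after adjustment. The share of all genes at that unadjusted limit is not given. The median log2 fold change of shCopa over shCon was -0.05 in the 80 genes and -0.01 in all tested genes. The standard error of a gene had a median of 0.209 with all libraries and 0.061 without shCon 1.

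Rpl7l1, a paralog of the large subunit protein gene Rpl7 and related to a yeast assembly factor of that subunit, had the smallest adjusted p. It stood at 77.9, 70.3 and 66.4 CPM in shCon and 99.3, 100.1 and 105.9 CPM in shCopa. All shCopa libraries were above all shCon libraries, with a log2 fold change of 0.51 ± 0.09 (SE; edgeR adjusted p = 0.00500; 0.57 ± 0.06 without shCon 1, 2.89e-07). Rpl7 itself, which is a structural protein, was at 783, 548 and 543 CPM in shCon and 499, 559 and 579 CPM in shCopa, and its groups overlapped (-0.20 ± 0.16, edgeR adjusted p = 0.371; -0.003 ± 0.06 without shCon 1, 0.968). The rise of Rpl7l1 remained past the threshold with any 1 library left out (0.45 to 0.57, adjusted p at most 0.0318).

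Rpl12, a protein at the base of the large subunit's stalk, where translation factors bind, had the largest fold change. Its row stood at 20.5, 12.6 and 11.7 CPM in shCon and 28.3, 29.4 and 25.1 CPM in shCopa, with groups that did not overlap. The log2 fold change was 0.89 ± 0.22 (edgeR adjusted p = 0.0158; 1.18 ± 0.10 without shCon 1, 1.36e-08). The call was lost without shCon 2 (edgeR adjusted p = 0.0523), shCopa 1 (0.0588) or shCopa 2 (0.0628). At 17.1 CPM per kilobase of annotated transcript (1242 bases), the Rpl12 row was the lowest of the 80, whose median was 243 CPM per kilobase. This rank depends on the annotated lengths.

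Most counts that match the Rpl12 sequence were on other rows. Gm10275 is identical to the Rpl12 transcript over 634 bases, and 7 rows of near-identical sequence held 92.5% of the sum of Rpl12 and its copies. Reads from one can be counted on the other, so the division between them is uncertain. The copies were at 297, 206 and 187 CPM in shCon and 278, 293 and 300 CPM in shCopa. In the sum, shCon 1 (317 CPM) fell among the shCopa libraries (306, 322 and 325 CPM), while shCon 2 and 3 (219 and 199 CPM) were below them. With the copies added, Rpl12 did not pass the test with 6 libraries (log2 fold change 0.38 ± 0.17, edgeR adjusted p = 0.129) and was higher without shCon 1 (0.60 ± 0.06, adjusted p = 8.54e-08).

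Such copies, defined as rows with at least 90% identity over at least 200 bases, were found for 70 of the 80 genes and comprised 457 rows. Their share was small for most genes, with a median of 0.0578% of the sum. It was over 10% in 16 genes and over 50% in Rpl12, Rpl5, Rpl14, Rpl27a, Rpl10 and Rps13, some named after their values were seen. For some genes the copies, and not the gene's own row, were highest in shCon 1. Rpl10, a large subunit protein that joins late in assembly, was at 177, 194 and 175 CPM in shCon and 193, 186 and 226 CPM in shCopa on its own row. Its copies, chiefly Rpl10-ps3, were at 430, 229 and 230 CPM in shCon and 224, 250 and 252 CPM in shCopa. Rps13, a small subunit protein, was at 49.8, 53.8 and 39.6 CPM in shCon on its own row, and its copies were at 124, 31.9 and 44.4 CPM. With copies added, shCon 1 was the highest shCon library in 80 of 80 genes, a count not made over all tested genes. The test on these sums called 1 gene higher (Rpl7l1) and 0 lower with 6 libraries, where 18.2% and 18.4% of all genes were called. Without shCon 1 it called 51 higher and 2 lower (28.4% and 27.4% of all genes), and 50 of the 51 were also called on their own rows.

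**Figure D2:**
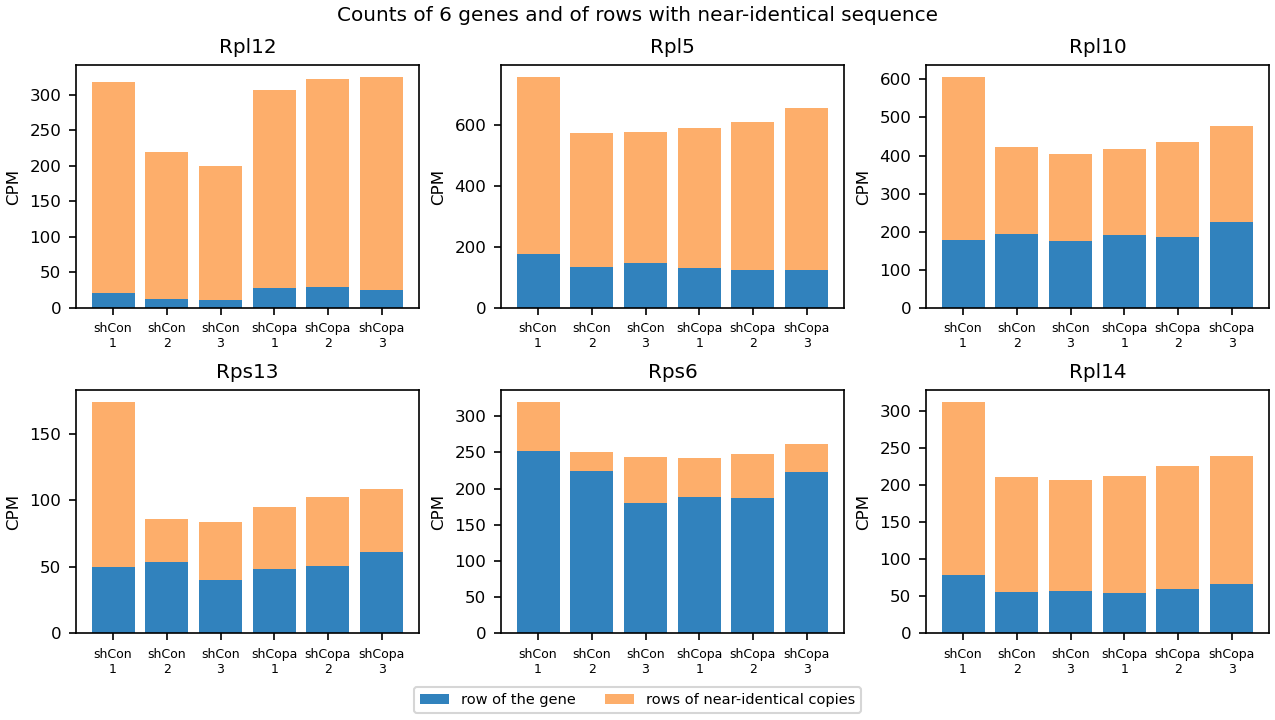
CPM in each library for 6 genes (Rpl12, Rpl5, Rpl10, Rps13, Rps6 and Rpl14), with the gene's own row in blue and the summed rows of near-identical sequence stacked in orange. Bars are single libraries; the copies hold 92.5% of the sum for Rpl12, 77.6% for Rpl5 and 58.4% for Rpl10, and the summed bar of shCon 1 is the tallest of the shCon bars in each gene.

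Without shCon 1, 50 of the 80 genes rose and 2 fell, and the remaining 28 did not pass. In that fit of 5 libraries 28.3% of 15273 genes rose and 27.0% fell, against 62.5% and 2.5% of the ribosomal protein genes. The rising genes were split evenly between the subunits, 20 of 32 in the small and 30 of 48 in the large. The changes were small. The median log2 fold change was 0.24 (0.01 over all genes), which is 1.18-fold, and folds of rising genes ran from 1.11 to 2.27, with the next highest at 1.58. In 51 genes all shCopa libraries were above shCon 2 and 3 and in 3 genes all were below, against 35.8% and 34.3% of all genes. Both fits share 5 libraries and are not independent. They show what the values are with and without shCon 1, and neither says which describes shCon cells.

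**Figure D3:**
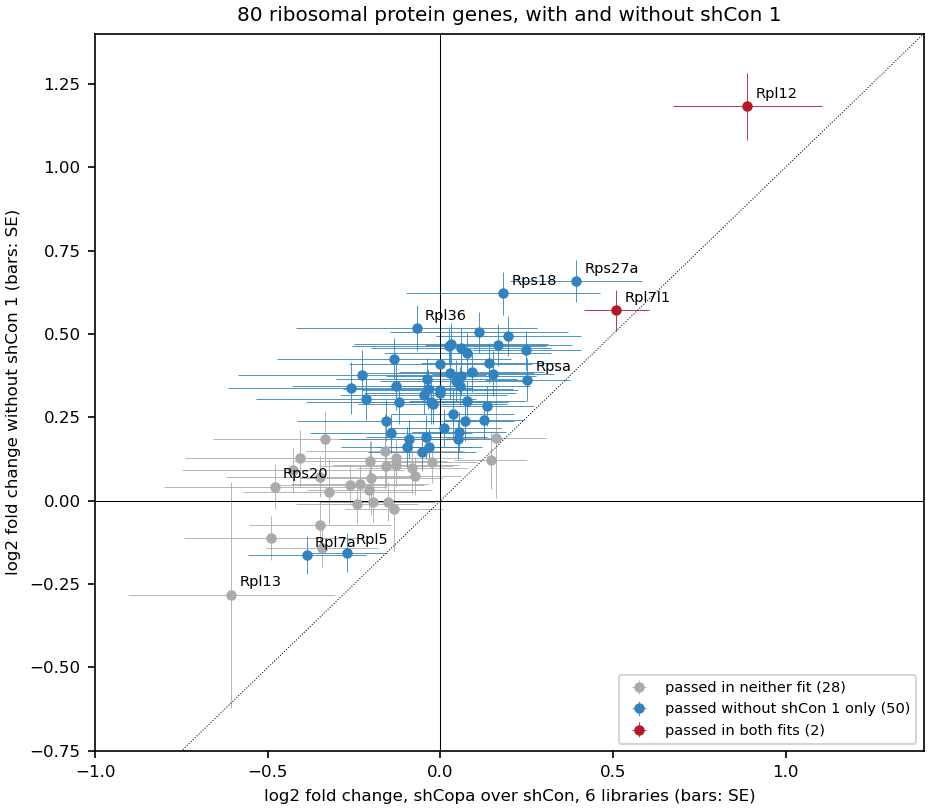
Log2 fold change of shCopa over shCon for the 80 genes, with all 6 libraries (horizontal) and without shCon 1 (vertical); each point is a gene, bars are standard errors, and the dotted line marks equal values. Rpl12 and Rpl7l1 pass in both fits, 50 genes pass only without shCon 1, and 28 pass in neither.

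Among small subunit proteins, Rps27a and Rps18 had the smallest adjusted p without shCon 1. Rps27a, made as a fusion to ubiquitin, was at 103, 61.3 and 66.3 CPM in shCon and 99.2, 99.1 and 104.7 CPM in shCopa. shCon 1 was thus level with shCopa, and the log2 fold change was 0.39 ± 0.19 with all libraries (edgeR adjusted p = 0.151) and 0.66 ± 0.06 without shCon 1 (5.49e-08). Rps18, whose protein sits in the head of the subunit, was at 306, 153 and 141 CPM in shCon and 210, 232 and 238 CPM in shCopa. Here shCon 1 was above all other libraries, and the log2 fold change was 0.18 ± 0.28 with all libraries (edgeR adjusted p = 0.650) and 0.62 ± 0.06 without shCon 1 (1.51e-07).

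Rpsa, the small subunit protein also known as a laminin receptor, was at 645, 542 and 492 CPM in shCon and 613, 679 and 708 CPM in shCopa. Its groups overlapped because of shCon 1, with log2 fold changes of 0.25 ± 0.12 (edgeR adjusted p = 0.149) and, without shCon 1, 0.36 ± 0.07 (0.000176). Rps6, the substrate of S6 kinase downstream of mTOR, was at 253, 224 and 181 CPM in shCon and 188, 188 and 223 CPM in shCopa. It did not pass in either fit (-0.14 ± 0.14 and -0.03 ± 0.13, edgeR adjusted p = 0.493 and 0.886), and on this row shCon 2 and 3 differed from each other by more than the group means did. Copies of Rps6 held 19.8% of the sum, which was at 320, 250.5 and 243 CPM in shCon and 242, 248 and 262 CPM in shCopa. The sum did not pass without shCon 1 (0.02 ± 0.05, edgeR adjusted p = 0.809) or with all libraries (-0.11 ± 0.12, 0.509). With length and GC offsets as well, it was lower without shCon 1 (-0.135 ± 0.045, 0.0155). Rps20, on the head of the subunit, was among the 3 lowest fold changes with all libraries, at -0.48 ± 0.32 (edgeR adjusted p = 0.280), and at 0.04 ± 0.07 without shCon 1 (0.619). It stood at 169 CPM in shCon 1 and between 69.4 and 78.7 CPM in the other libraries.

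By adjusted p without shCon 1, Rpl9 and Rpl38 followed Rpl12 and Rpl7l1 among the large subunit genes. Rpl38, known for the selective translation of Hox mRNAs in mouse embryos, was at 143, 75.4 and 71.5 CPM in shCon and 99.6, 107 and 107 CPM in shCopa. Without shCon 1 it rose by 0.51 ± 0.06 on the log2 scale (edgeR adjusted p = 1.35e-06), and with all libraries it was at 0.11 ± 0.26 (0.763). Rpl9, near the base of the stalk, was at 375, 224 and 219 CPM in shCon and 293, 314 and 331 CPM in shCopa. It rose by 0.49 ± 0.06 without shCon 1 (edgeR adjusted p = 1.22e-06) and was at 0.20 ± 0.21 with all libraries (0.498). In both genes shCon 1 was the highest library. Rpl10a, a protein that is present in only some ribosomes, was at 0.30 ± 0.06 without shCon 1 (edgeR adjusted p = 0.000729) and -0.12 ± 0.27 with all libraries (0.756).

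The acidic stalk proteins Rplp1 and Rplp2 and their anchor Rplp0 bind the factors that drive elongation. Rplp1 was at 463, 197 and 183 CPM in shCon and 239, 262 and 265 CPM in shCopa, and Rplp2 at 217, 119 and 113 against 149, 162 and 163 CPM. Both were highest in shCon 1 and rose without it, by 0.43 ± 0.06 and 0.44 ± 0.06 on the log2 scale (edgeR adjusted p = 1.02e-05 and 5.22e-06). With all libraries they were at -0.14 ± 0.34 and 0.08 ± 0.24 (edgeR adjusted p = 0.782 and 0.828). Rplp0 was at 1237, 964 and 889 CPM in shCon and 868, 959 and 954 CPM in shCopa. Its log2 fold change was -0.15 ± 0.14 with all libraries and 0.00 ± 0.06 without shCon 1 (edgeR adjusted p = 0.417 and 0.974), so the anchor did not pass in the fit in which both acidic proteins rose. The difference between these genes was not tested.

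Per kilobase of annotated transcript, the 5 most abundant were Rpl41 at 1190 CPM per kilobase, Rplp0 at 721, Rps15 at 684, Rps2 at 634 and Rps12 at 620. Rpl41, a very short protein of the large subunit, was at 788, 390 and 368 CPM in shCon and 495, 547 and 531 CPM in shCopa. It rose by 0.47 ± 0.06 on the log2 scale without shCon 1 (edgeR adjusted p = 1.60e-06), as did Rps12 by 0.36 ± 0.06 (9.48e-05) and Rps15 by 0.33 ± 0.06 (5.85e-05). Rps2, near the mRNA entry channel, was at 930, 508 and 567 CPM in shCon and 637, 643 and 512 CPM in shCopa, and passed in neither fit (-0.16 ± 0.23 with all libraries, edgeR adjusted p = 0.616, and 0.15 ± 0.11 without shCon 1, 0.322). None of these 5 passed with all libraries (edgeR adjusted p 0.417 to 0.999), where Rpl41 was at 0.02 ± 0.28, Rps12 at 0.04 ± 0.22 and Rps15 at -0.001 ± 0.23.

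Rpl5 and Rpl11 assemble with 5S rRNA and, when not in ribosomes, bind Mdm2, the ubiquitin ligase of p53. Rpl11 was at 216, 140 and 147 CPM in shCon and 172, 170 and 188 CPM in shCopa, and rose by 0.30 ± 0.06 on the log2 scale without shCon 1 (edgeR adjusted p = 0.000384; 0.08 ± 0.17 with all libraries, 0.749). Rpl5 was at 177, 135 and 147 CPM in shCon and 131, 125 and 124 CPM in shCopa. All shCopa libraries were below all shCon libraries in Rpl5, and its log2 fold change was -0.27 ± 0.12 with all libraries (edgeR adjusted p = 0.108) and -0.16 ± 0.06 without shCon 1 (0.0308). Copies of Rpl5, chiefly Gm15500, which matches it exactly over 1018 bases, held 77.6% of the sum. That sum was at 757, 573 and 576 CPM in shCon and 589, 610 and 654 CPM in shCopa. With copies added the direction of Rpl5 without shCon 1 turned, to 0.10 ± 0.05 (edgeR adjusted p = 0.109), so the lower value of its row is not shown for the summed transcript.

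Rpl7a, a protein near the exit of the peptide tunnel, was the other gene that fell without shCon 1. It was at 612, 417 and 393 CPM in shCon and 343, 377 and 366 CPM in shCopa, with groups that did not overlap. The log2 fold change was -0.39 ± 0.17 with all libraries (edgeR adjusted p = 0.118), -0.16 ± 0.06 without shCon 1 (0.0199) and -0.17 ± 0.05 without shCon 1 with its copies added (0.0111). Rpl24, at a bridge between the subunits and named after its values were seen, also had groups that did not overlap, at 306, 209 and 211 against 177, 195 and 201 CPM. It missed the threshold on its own row without shCon 1 (-0.14 ± 0.06, edgeR adjusted p = 0.0566; -0.34 ± 0.16 with all libraries, 0.138) and passed with copies added (-0.14 ± 0.06, 0.0377). The copies of Rpl24 held only 0.0078% of the sum. Its counts were thus nearly the same in both fits, and the call lies near the threshold in them. With the offsets for length and GC content described below, Rpl24 fell with all libraries (-0.31 ± 0.06, edgeR adjusted p = 0.00329). It also fell with them without shCon 1 (-0.30 ± 0.05, 5.52e-05). The genes with groups that did not overlap in all 6 libraries were thus Rpl12 and Rpl7l1, higher, and Rpl5, Rpl7a and Rpl24, lower. That is 2.5% and 3.75% of the 80, against 27.2% and 26.9% of all tested genes.

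Rpl13, of the large subunit, had with Rps20 one of the 3 lowest fold changes with all libraries. It was at 392, 200 and 245 CPM in shCon and 210, 219 and 122 CPM in shCopa, and its low value in shCopa 3 gave it the largest coefficient of variation over shCopa of the 80 genes, 29.3%. Its log2 fold change was -0.61 ± 0.30 (edgeR adjusted p = 0.154; -0.28 ± 0.34 without shCon 1, 0.550).

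Of the 3 paralogs among the 80 genes, Rpl7l1 is described above. Rps27l, which is known as a p53 target, was at 135, 86.1 and 90.7 CPM in shCon and 98.8, 103 and 117 CPM in shCopa, and rose by 0.26 ± 0.07 on the log2 scale without shCon 1 (edgeR adjusted p = 0.00456; 0.04 ± 0.18 with all libraries, 0.897). Rps27, which it resembles, was at 129, 68.7 and 71.8 against 61.5, 73.6 and 80.1 CPM and did not pass (0.03 ± 0.10 without shCon 1, edgeR adjusted p = 0.845; -0.32 ± 0.25 with all libraries, 0.344). Rpl22l1 was at 22.9, 14.4 and 13.8 CPM in shCon and 14.9, 13.7 and 15.8 CPM in shCopa and did not pass (0.07 ± 0.11 without shCon 1, edgeR adjusted p = 0.631; -0.20 ± 0.21 with all libraries, 0.486). Rpl22 rose by 0.19 ± 0.07 without shCon 1 (edgeR adjusted p = 0.0190), from 66.3 and 62.3 CPM to between 69.9 and 76.8 CPM, with shCon 1 at 98.6 CPM, and was at -0.04 ± 0.18 with all libraries (0.874). The differences between paralogs were not tested. Rpl39 rose without shCon 1 (0.37 ± 0.06, edgeR adjusted p = 8.41e-05; -0.04 ± 0.26 with all libraries, 0.919), and Rpl3, Rps4x and Rpl10 did not pass in either fit.

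Transcript length moved with the excess of shCon 1. Ribosomal protein transcripts are short, with a median annotated length of 816 bases. In tested genes that are not ribosomal protein genes, shCon 1 was above shCon 2 and 3 by a median of 0.36 on the log2 scale in transcripts under 600 bases and 0.53 between 600 and 1000 bases, and was at -0.32 above 4000 bases. Ribosomal protein genes of the same lengths were at 0.90 (22 genes under 600 bases) and 0.72 (33 genes of 600 to 1000 bases). In longer classes they were at 0.55 (20 genes of 1000 to 2000 bases, 0.34 in other genes), 0.47 (4 genes of 2000 to 4000 bases, 0.02 in other genes) and 0.81 (1 gene above 4000 bases). Lengths are those of a single annotated transcript per gene, which need not be the one these cells make. Rps15a, the gene above 4000 bases, is annotated at 5179 bases, but its near-identical copy Rps15a-ps4 matches over 459 bases. For Rps20, at 3706 bases, the copy Gm4332 matches over 346. The longer classes are thus uncertain for ribosomal protein genes, and the offsets below use the same lengths. The excess of shCon 1 in other genes also moved with GC content, from a median of -0.21 below 45% to 0.24 at 55% or more, and ribosomal protein genes were at 0.60 and 0.83 in those classes (5 and 14 genes). Across the 80 genes, the excess of shCon 1 and log2 length had r = -0.41 and rho = -0.48, a description over genes that share libraries. The shCopa libraries minus shCon 2 and 3 showed little trend on length in other genes, with medians from 0.05 in the shortest to -0.04 in the longest. In ribosomal protein genes this difference was at 0.34 under 600 bases and 0.18 between 600 and 1000 bases. It was at 0.23 between 1000 and 2000 bases, 0.12 between 2000 and 4000 bases and 0.295 in the 1 gene above 4000 bases.

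**Figure D4:**
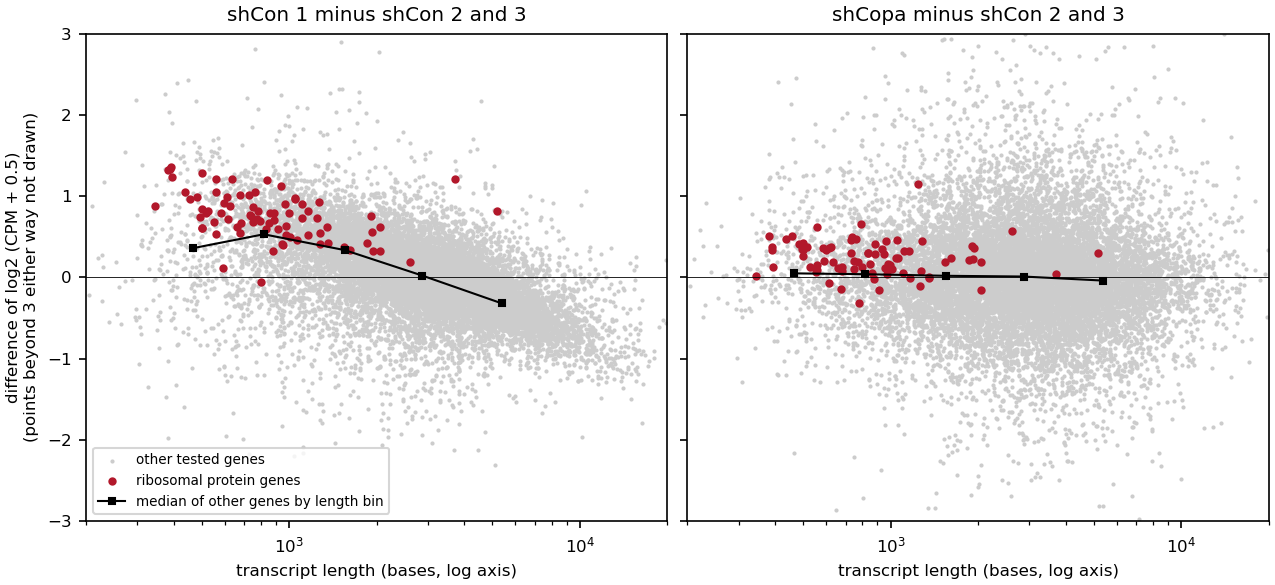
Difference of log2 (CPM + 0.5) against transcript length in bases (log axis) for shCon 1 minus the mean of shCon 2 and 3 (left) and shCopa minus the mean of shCon 2 and 3 (right); grey points are other tested genes, red points the 80 ribosomal protein genes, and black squares the medians of other genes in 5 length classes. The black line falls from 0.36 in the shortest and 0.53 in the next class to -0.32 in the longest on the left, and stays between 0.05 and -0.04 on the right.

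When each library's trend on length and GC content was removed, fewer genes were called without shCon 1 and more with it. With all libraries 13 genes rose and 5 fell (16.2% and 6.25%), against 22.6% and 26.0% of all genes in that fit. Without shCon 1, 38 rose and 7 fell (47.5% and 8.75%), against 27.0% and 30.0% of all genes, and the median log2 fold change was 0.11 (-0.03 over all genes). With copies added as well, 38 rose and 8 fell without shCon 1, against 27.3% and 30.5% of all genes. Of the 38 genes on their own rows, 37 were among the 50 that rose without these offsets. Rpl7l1 (0.42 and, without shCon 1, 0.47), Rpl12 (0.94 and 1.07) and Rps27a (0.41 and 0.49) were among those that rose in both fits with offsets, as was Rpl38 (0.45 and 0.49). The 5 that fell with all libraries also fell without shCon 1, and some are named after their values were seen. They were Rpl5 (-0.42 and -0.31), Rpl7 (-0.25 and -0.19), Rpl7a (-0.31 and -0.29), Rpl24 (-0.31 and -0.30) and Rpl27 (-0.26 and -0.22). With copies added as well, Rpl5 did not pass without shCon 1 (-0.06, edgeR adjusted p = 0.338). Rps27a was therefore called with all libraries after the offsets (edgeR adjusted p = 0.00361) and not before.

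Genes that build ribosomes were mostly higher in shCopa, with and without shCon 1. The lists that follow were fixed for this tissue and pathway with earlier results of these data known. Of 50 genes for rRNA transcription and processing, 31 rose and 2 fell with all libraries (median log2 fold change 0.56), and 43 rose and 2 fell without shCon 1 (median 0.64). The rising genes are 62% and 86% of the list, against 18.2% and 28.3% of all tested genes. Nop2, an rRNA methyltransferase, went from 50.8, 51.7 and 49.2 CPM to 109, 121 and 117 CPM (1.20 ± 0.09, edgeR adjusted p = 0.000106; 1.20 ± 0.07 without shCon 1). Wdr75, needed for transcription and processing of pre-rRNA, went from 42.3, 41.7 and 41.0 CPM to 81.5, 81.1 and 85.4 CPM (0.99 ± 0.08, 0.000165; 1.00 ± 0.07 without shCon 1). In both genes shCon 1 lay with the other shCon libraries. The 2 that fell, named after their values were seen, were Imp3, of the U3 particle (-3.46, and -2.58 without shCon 1), and Rrp1 (-0.41, and -0.27). Leaving out other libraries gave 27 to 30 rising genes.

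Of 36 chaperones of ribosomal proteins and late assembly factors, 22 rose and 1 fell with all libraries (median 0.54) and 29 rose and 1 fell without shCon 1 (median 0.56). The rising genes are 61.1% and 80.6% of the list, against the same 18.2% and 28.3%. Leaving out any other library gave 18 to 20 rising genes. Tsr1, a factor on the maturing small subunit, went from 41.8, 44.9 and 47.5 CPM to 124, 131 and 138 CPM (1.55 ± 0.09, edgeR adjusted p = 5.96e-05; 1.502 ± 0.07 without shCon 1). Riok2, an atypical kinase of the same particle, went from 36.7, 37.7 and 35.6 CPM to 82.7, 78.8 and 83.1 CPM (1.15 ± 0.08, 0.000106; 1.15 ± 0.07 without shCon 1). The 1 that fell was Tsr2, the chaperone of Rps26 (-0.52, and -0.39 without shCon 1), named after its values were seen. The tests of these lists against the ribosomal protein genes were not made.

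**Figure D5:**
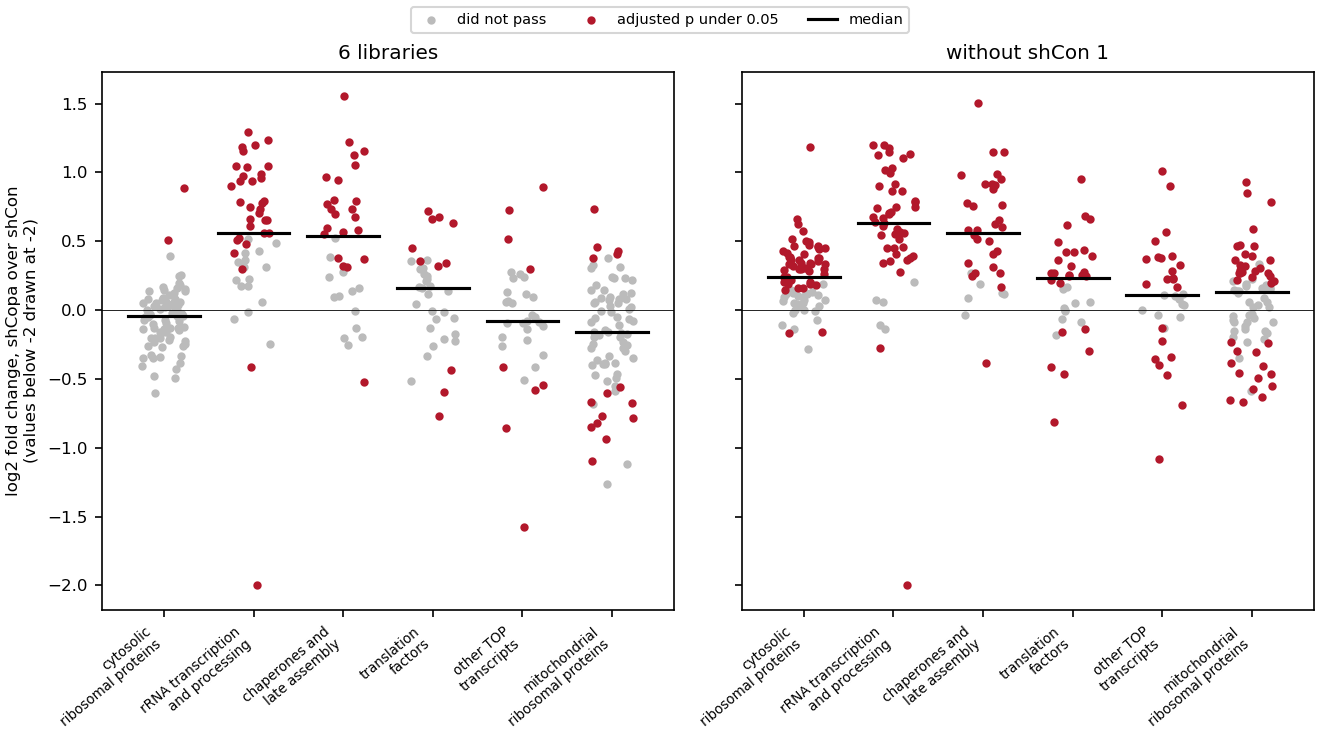
Log2 fold change of shCopa over shCon for the 80 ribosomal protein genes and 5 lists of related genes, with all 6 libraries (left) and without shCon 1 (right); each point is a gene, red where the edgeR adjusted p was under 0.05, and black bars are medians. The median is -0.05 for ribosomal proteins, 0.56 for rRNA transcription and processing and 0.54 for chaperones and late assembly on the left, and 0.24, 0.64 and 0.56 on the right.

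Other transcripts with a TOP motif or products bound to ribosomes moved in both directions. Of 33, 4 rose and 5 fell with all libraries (median -0.08), and 15 rose and 8 fell without shCon 1 (median 0.11). That is 12.1% and 15.2% of the list with all libraries, against 18.2% and 18.4% of all tested genes, and 45.5% and 24.2% without shCon 1, against 28.3% and 27.0%. With length and GC offsets, the balance without shCon 1 changed to 11 rising and 12 falling. Eif2s3x, a subunit of the factor that brings initiator tRNA, rose from 225, 233 and 228 CPM to 312, 332 and 335 CPM (0.52 ± 0.08, edgeR adjusted p = 0.00251; 0.50 ± 0.06 without shCon 1). Pfdn5, a prefoldin subunit, fell from 114, 86.5 and 78.1 CPM to 51.4, 50.1 and 52.2 CPM (-0.86 ± 0.15, 0.00363; -0.69 ± 0.07 without shCon 1). The list also holds genes whose names the rule misses although their proteins belong to the ribosome or are bound to it, among them Fau, Rpl36al and Rack1. Rack1 was at 685, 428 and 395 CPM in shCon and 507, 551 and 555 CPM in shCopa, and Fau at 378, 163 and 161 against 171, 178 and 177 CPM. As in most of the 80 genes, shCon 1 was the highest library in these 3. Without shCon 1, Rack1 and Rpl36al rose (0.38 and 0.23) and Fau was at 0.11 (edgeR adjusted p = 0.0927). With all libraries the 3 were at 0.10, -0.09 and -0.42 and did not pass.

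Of 36 general translation factors, 8 rose and 3 fell with all libraries and 20 rose and 6 fell without shCon 1. The 22.2% rising with all libraries are near the 18.2% of all tested genes and the 8.33% falling are below their 18.4%. Without shCon 1 the shares are 55.6% and 16.7%, against 28.3% and 27.0%. Without any 1 of the other libraries 4 or 5 rose, and without any 1 shCopa library 1 fell. Eif4g2, an initiation factor for translation that bypasses the cap-binding protein, fell from 945, 1026 and 1038 CPM to 603, 579 and 585 CPM (-0.77 ± 0.09, edgeR adjusted p = 0.000549; -0.81 ± 0.05 without shCon 1). Eif2s1, the initiation factor subunit that stress kinases phosphorylate, rose from 71.3, 68.1 and 71.5 CPM to 112, 108 and 117 CPM (0.68 ± 0.08, 0.000838; 0.68 ± 0.06 without shCon 1).

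Among 20 tested regulators of TOP transcripts and kinases of ribosomal proteins, 2 rose and 6 fell with all libraries, and 3 rose and 11 fell without shCon 1. These are 10% and 30% of the list with all libraries, against 18.2% and 18.4% of all tested genes, and 15% and 55% without shCon 1, against 28.3% and 27.0%. Without any 1 of the other libraries, 1 rose and 5 or 6 fell. Eif4ebp2, which binds the cap-binding protein eIF4E and is released from it by mTOR, fell from 182, 183 and 179 CPM to 28.2, 24.3 and 22.4 CPM (-2.86 ± 0.11, edgeR adjusted p = 2.20e-05; -2.86 ± 0.07 without shCon 1). Myc, a transcription factor known to drive ribosome synthesis, rose from 33.8, 35.0 and 28.7 CPM to 128, 143 and 141 CPM (2.08 ± 0.11, 4.45e-05; 2.10 ± 0.09 without shCon 1). Larp1, which binds TOP motifs and was named after its values were seen, fell from 195, 231 and 208 CPM to 96.2, 101 and 96.6 CPM (-1.11 ± 0.10, 0.000210; -1.17 ± 0.06 without shCon 1). The groups did not overlap in any of these 3 genes. Mycn, named after its values were seen, fell (-0.82, edgeR adjusted p = 0.00527; -0.72 without shCon 1).

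Of 14 genes of the Mdm2 and p53 response to free ribosomal proteins, 7 rose and 2 fell with all libraries, and 8 rose and 4 fell without shCon 1. The rising genes are 50% and 57.1% of the list, against 18.2% and 28.3% of all tested genes, and the falling ones 14.3% and 28.6%, near the 18.4% and 27.0% of all genes. Without any 1 of the other libraries, 3 to 5 rose. Pmaip1, which encodes the cell death protein Noxa, went from 62.3, 60.8 and 66.0 CPM to 165, 160 and 178 CPM (1.41 ± 0.09, edgeR adjusted p = 6.83e-05; 1.399 ± 0.07 without shCon 1). Gtse1, which restrains p53, went from 38.8, 46.2 and 42.5 CPM to 79.7, 88.0 and 91.7 CPM (1.02 ± 0.10, 0.000389; 0.96 ± 0.07 without shCon 1). The 2 that fell with all libraries were Sesn1 (-0.62, and -0.61 without shCon 1) and Zmat3 (-0.54, and -0.63). Mdm4 (-0.58) and Eda2r (-0.32) also fell without shCon 1. These falling genes are named after their values were seen. Of 21 genes of ribosome rescue and quality control, 4 rose and 1 fell with all libraries, and 7 rose and 3 fell without shCon 1. The rising genes, 19% and 33.3%, are near the share of all genes, and the falling ones, 4.76% and 14.3%, are below it. Without any 1 of the other libraries, 1 to 3 rose and at most 1 fell. Map3k20, the kinase that senses stalled ribosomes, was at 75.2, 98.0 and 96.9 CPM in shCon and 143, 150 and 148 CPM in shCopa (0.71 ± 0.12, edgeR adjusted p = 0.00351; 0.59 ± 0.06 without shCon 1).

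The 78 mitochondrial ribosomal protein genes, whose products form a separate ribosome, gave 5 rising and 10 falling genes with all libraries (median -0.16) and 25 rising and 14 falling without shCon 1 (median 0.13). With all libraries these are 6.41% and 12.8% of the list, below the 18.2% and 18.4% of all tested genes, and without shCon 1 they are 32.1% and 17.9%, against 28.3% and 27.0%. With length and GC offsets the balance without shCon 1 turned, to 14 rising and 20 falling. They too took the largest share of counts in shCon 1, 0.305%, against 0.206% and 0.208% in shCon 2 and 3 and 0.218% to 0.232% in shCopa. Mrpl4 fell from 37.8, 25.9 and 24.5 CPM to 16.3, 16.1 and 16.4 CPM (-0.85 ± 0.18, edgeR adjusted p = 0.00803; -0.63 ± 0.09 without shCon 1), with groups that did not overlap. Leaving out shCopa 1, 2 or 3 gave 2, 3 and 3 falling genes, and 3, 1 and 0 rising ones.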

How the data were processed

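RNA-seq of 3 shCon and 3 shCopa libraries of AY-mICC cells was used, with groups and replicate numbers taken from the sample titles. Total RNA was taken with TRIzol, made into mRNA libraries with a standard kit and sequenced from both ends, per the labels' protocols. The authors deposited estimated counts to 2 decimals for each Ensembl gene, in 1 table. In a library, 10.6% to 11.9% of all values were not whole, and 73.1% of the values of ribosomal protein genes were not. The submitters' processing notes name HISAT2 2.0.5, Trimmomatic, featureCounts, HTSeq, DESeq2 and the build GRCm39. The program behind the estimated counts, the strand setting and the annotation release are not stated there. How reads shared with pseudogenes or antisense genes were divided is thus unknown.

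Values were rounded to whole numbers. Symbols, biotypes, transcript lengths and GC content came from GENCODE M21, matched by gene identifier, with a symbol for 52081 of 55414 rows and a length for all 80 genes. Length and GC content were those of a single annotated transcript per gene. The main test was edgeR 4.0.16 in R 4.3.3 (TMM, filterByExpr, robust quasi-likelihood fit) with Benjamini-Hochberg adjustment over all tested genes and a threshold of 0.05. The biological coefficient of variation was 0.165, and 0.068 without shCon 1. The standard error is the fitted change divided by the root of its F statistic. Within-group pairs had a chi-square per degree of freedom of 4.39 to 8.02, or 77.9 and 89.7 for pairs that hold shCon 1, and every pair thus differed beyond sampling noise. A gene with no counts has a floor of 3 counts, 0.122 to 0.153 CPM, for counting error only.

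Copies were rows whose transcripts matched a gene with blastn 2.17.0+ (at least 90% identity over at least 200 bases). The edgeR script was checked on simulated counts with known changes. Alternatives were other scaling factors and filters, DESeq2 1.42.0, limma-voom (limma 3.58.1), the replicate block, each library left out, offsets for length and GC content, and counts of pseudogenes or copies added. Genes named were those past the threshold with all libraries, the 3 highest and 3 lowest fold changes, the 5 smallest adjusted p in each direction without shCon 1, the 5 most abundant per kilobase, and a list by role and paralogy. For each other list, up to 2 genes with the smallest adjusted p were named. Values of 2 of the genes so chosen or listed are not reported here. The ribosomal protein genes and all lists were chosen with earlier results of these data known. Figures used Python 3.11.15 and matplotlib 3.10.9.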

Additional observations from a re-analysis of the deposited data

How the results depend on the processing

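The count of ribosomal protein genes higher in shCopa rested on shCon 1. It was 2 with all libraries and 1 to 50 with 1 library left out, and the count lower was 0 and 0 to 2. The count higher stayed at 2 under other scaling factors, DESeq2, limma-voom, no filter on low counts, a filter of 1 CPM in 3 libraries, the replicate block and rows named as pseudogenes added. It was 1 at an adjusted p of 0.01, with matched copies added or without the paralogs Rpl7l1, Rpl22l1 and Rps27l, and none of these 3 settings gave a lower gene. With length and GC offsets, 13 were higher and 5 lower, and with the replicate block as well 10 and 3. Without shCon 1, the counts higher and lower were 49 and 2 with DESeq2, 51 and 2 with pseudogene rows added, 51 and 2 with matched copies added, 48 and 2 without paralogs, 38 and 7 with offsets, and 38 and 8 with offsets and copies. Among the other lists, the counts that moved by over 1.5 times with offsets and all libraries were those lower, from 5 to 10 for TOP and ribosome-bound transcripts, 3 to 7 for translation factors, 6 to 11 for TOP regulators, 1 to 3 for rescue and 10 to 20 for mitochondrial ribosomal proteins, and those higher, from 5 to 8, of the last. With the replicate block the counts higher went from 7 to 3 for the Mdm2 and p53 response, 8 to 5 for translation factors, 4 to 2 for rescue, 2 to 1 for TOP regulators (also with DESeq2 and with no filter on low counts) and 5 to 0 for mitochondrial ribosomal proteins, and the counts lower from 3 to 1 for translation factors, 2 to 1 for rRNA genes, 1 to 0 for chaperones and 10 to 5 for mitochondrial ribosomal proteins. With no filter, 5 translation factors and 3 mitochondrial ribosomal proteins were higher, and with offsets and the block together 6 translation factors and 8 TOP and ribosome-bound transcripts were lower. Shares of all genes called are not given for DESeq2, limma-voom, other factors and filters, the replicate block, pseudogene rows or the other libraries left out. In those settings a change in these counts cannot be told apart from a change over all genes. The median log2 fold change of the ribosomal protein genes, -0.05, ran from -0.18 to 0.24 with 1 library left out.

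Whether shared replicate numbers pair the libraries was not stated in the sources used here. Deviations of same-numbered libraries from their group means correlated at -0.162, -0.058 and -0.114 across genes. With 3 libraries a group and shCon 1 apart from its group, these values cannot exclude a pairing. With the replicate block 2 ribosomal protein genes were higher, as without it, and the median was -0.001. Of 31 genes named by rule, 20 changed sign under at least 1 setting. With 1 library left out, the lowest and highest log2 fold changes of those whose sign turned without shCon 1 were Rpl10a (-0.32 to 0.30), Rpl22 (-0.18 to 0.19), Rpl22l1 (-0.34 to 0.068), Rpl39 (-0.23 to 0.37), Rplp1 (-0.38 to 0.43), Rps15 (-0.17 to 0.33), Rps2 (-0.33 to 0.15), Rps20 (-0.70 to 0.042), Rps27 (-0.49 to 0.026), Rps4x (-0.34 to 0.033). Of those whose sign turned without another library, they were Rpl11 (-0.042 to 0.30), Rpl38 (-0.078 to 0.51), Rpl41 (-0.18 to 0.47), Rplp2 (-0.10 to 0.44), Rps12 (-0.13 to 0.36), Rps18 (-0.029 to 0.62), Rps27l (-0.088 to 0.26). Further values whose sign turned follow by setting. Without shCon 1, DESeq2 gave Rpl10a 0.29, Rpl22 0.18, Rpl22l1 0.062, Rpl39 0.36, Rplp1 0.42, Rps15 0.33, Rps2 0.14, Rps20 0.036, Rps27 0.020, Rps4x 0.026. Pseudogene rows added, without shCon 1, gave Rpl10a 0.28, Rpl22 0.19, Rpl22l1 0.068, Rpl39 0.37, Rplp1 0.43, Rps15 0.33, Rps2 0.15, Rps20 0.043, Rps27 0.027, Rps4x 0.033, Rps6 0.018. Matched copies added, without shCon 1, gave Rpl10a 0.27, Rpl22 0.19, Rpl22l1 0.064, Rpl39 0.36, Rpl5 0.10, Rplp1 0.42, Rps15 0.33, Rps2 0.15, Rps20 0.073, Rps27 0.025, Rps4x 0.030, Rps6 0.016. Offsets without shCon 1 gave Rpl10 -0.033, Rpl10a 0.19, Rpl22 0.075, Rpl39 0.17, Rplp1 0.37, Rps15 0.29, Rps2 0.11. Offsets and copies without shCon 1 gave Rpl10 -0.057, Rpl10a 0.17, Rpl22 0.069, Rpl39 0.18, Rplp1 0.38, Rps15 0.30, Rps2 0.11, Rps20 0.009. Offsets with all libraries gave Rpl10a 0.039, Rplp1 0.17, Rps15 0.27, Rps2 0.050, Rps27l -0.018. Offsets with the replicate block gave Rpl10a 0.055, Rpl39 0.015, Rplp1 0.20, Rps15 0.28, Rps2 0.048, Rps27l -0.018. The replicate block alone gave Rpl39 0.040, Rplp1 0.008, Rps15 0.058, and limma-voom Rpl39 0.039, Rplp1 0.000, Rps15 0.056. Rpl10 was at -0.11 with pseudogene rows or matched copies added, Rpl41 at -0.006 with no filter, and Rps15 at 0.030 with upper-quartile factors, 0.000 with factors set without ribosomal protein genes and 0.012 with the 1 CPM filter. The cause of these turns was not tested. The settings with matched copies, and those without shCon 1 with pseudogene rows or without paralogs, were chosen after seeing the data.

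With 3 libraries a group, and 2 shCon libraries in the fits without shCon 1, small differences and effects of single libraries cannot be told apart. The row of Rpl12, lowest per kilobase of annotated transcript, had 11.7 CPM or more in every library, and the effect of depth was not tested. Reads shared with near-identical copies limit the 16 genes in which copies held over 10% of the sum.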

Other observations

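Rows whose names follow the ribosomal protein pattern but that are not annotated as protein coding were kept out of the 80 genes, and 6 such rows matched. Rps4l, annotated as a transcribed processed pseudogene, was at 120, 75.5 and 66.1 CPM in shCon and 70.4, 79.1 and 66.3 CPM in shCopa. shCon 1 was the highest library, and the groups overlapped (log2 fold change -0.28 ± 0.22, edgeR adjusted p = 0.355, and 0.02 ± 0.08 without shCon 1, 0.840). Rps12l1 was at 1.16 to 2.51 CPM in shCon and 1.43 to 4.56 CPM in shCopa.

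The 300 rows named as ribosomal protein pseudogenes took 0.141%, 0.0826% and 0.0881% of counts in shCon 1 to 3 and 0.0976%, 0.101% and 0.100% in shCopa 1 to 3. This is the order seen in the 80 genes, with shCon 1 above and shCon 2 and 3 below the shCopa libraries. Reads of the parent genes that were placed on these rows cannot be told apart from transcripts of the rows themselves. Among the rows with the most counts, some chosen after their values were seen, Rps23-ps1 was at 118, 82.6 and 77.5 CPM in shCon and 98.0, 99.2 and 104.1 CPM in shCopa, and Rpl14-ps1 at 234, 156 and 150 against 158, 167 and 173 CPM. Without shCon 1, Rps23-ps1 was higher in shCopa (0.32 ± 0.06, edgeR adjusted p = 0.000179) and Rpl14-ps1 did not pass (0.11 ± 0.06, 0.113).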
